A study of Homo sapiens with 6 samples.

Results

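The genes described here are 9 genes of antigen presentation by major histocompatibility complex (MHC) class I: the heavy chains HLA-B, HLA-C and HLA-E, the light chain B2M, the transporter genes TAP1 and TAP2, the loading chaperone TAPBP, and the immunoproteasome subunits PSMB8 and PSMB9. They were chosen by name, with earlier results of these data known. All 9 were present among the 12010 named genes of the series, with 17 of its 30624 transcripts. RNA sequencing compared 3 libraries of 92.1 cells given DMSO, the solvent, with 3 libraries of 92.1 cells given 0.1 µM LBH589, both for 24 h. The 92.1 line is an established human cell line derived from uveal melanoma, which arises from melanocytes in the eye, so all values come from 1 line grown in culture. LBH589 (panobinostat) blocks histone deacetylases, which take acetyl marks off histones and many other proteins. No further allele, agent or separate culture is named in the labels, so the p-values reflect no more than the variation among these libraries, which could be technical.

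Class I molecules show peptides from inside the cell to cytotoxic T cells and natural killer cells. Proteasomes cut proteins into peptides, and in cells exposed to interferon the subunits PSMB8, PSMB9 and PSMB10 replace the constitutive catalytic subunits PSMB5, PSMB6 and PSMB7 to form the immunoproteasome. The TAP1/TAP2 transporter carries peptides into the endoplasmic reticulum, where tapasin, the product of TAPBP, bridges it to a heavy chain that has paired with B2M. Heavy chains that lack peptide or B2M are poorly exported. Many tumours, melanomas among them, present little class I, through loss of one of these genes or through low transcription.

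Levels are given as FPKM (fragments per kilobase of transcript, relative to all mapped fragments), summed over the listed transcripts of a gene. Differences are log2 fold changes of FPKM + 1, LBH589 minus DMSO, from limma fitted across all genes, and a gene was called at a Benjamini-Hochberg adjusted p below 0.05. For genes of low FPKM the pseudocount shrinks the fold change on this scale. The files hold no counts, so absolute depth is unknown and no counting interval can be given. Summed FPKM lay between 397174 and 422630 in the DMSO libraries and between 355148 and 367222 in the LBH589 libraries. All 8 melanocyte lineage markers were listed, and their summed FPKM lay between 2547 and 2692 in DMSO and between 721 and 776 in LBH589, with 7 of 8 called lower. Of 10 leukocyte markers only CD68 was listed (11.6 to 16.8 FPKM in DMSO, 6.69 to 12.4 in LBH589), while PTPRC, CD3E, CD14 and the others were not analysed here. No endothelial marker of 4 was listed, 2 of 6 fibroblast markers were (COL1A1 and LUM, together 1.47 to 2.52 FPKM in DMSO and 4.23 to 5.55 in LBH589), and 2 of 4 markers of the retinal pigment epithelium were (6.88 to 8.12 and 3.44 to 7.16 FPKM). In such bulk samples, fewer cells of a type and less RNA per cell cannot be told apart. The melanocyte and fibroblast marker levels moved with the treatment, and their part in the results on the class I genes was not tested.

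The class I genes did not move as a unit. Of the 9 genes, all of which passed the filter of a mean of at least 0.5 FPKM, 3 rose (HLA-B, HLA-E and PSMB9), 3 fell (TAP2, TAPBP and PSMB8) and 3 were not called (HLA-C, B2M and TAP1). Among all 11520 genes tested 48.8% were called, 27.2% as rises and 21.6% as falls, so a share of 6 in 9 lies not far above the background. The median log2 fold change was 0.54 over the 9 genes and 0.08 over all genes tested. Groups did not overlap in the 6 called genes and overlapped in the other 3, while 59.5% of all genes tested had groups that did not overlap. Roles did not share a call: the immunoproteasome had 1 rise and 1 fall, and the transporter had 1 fall and 1 gene that was not called.

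**Figure D1:**
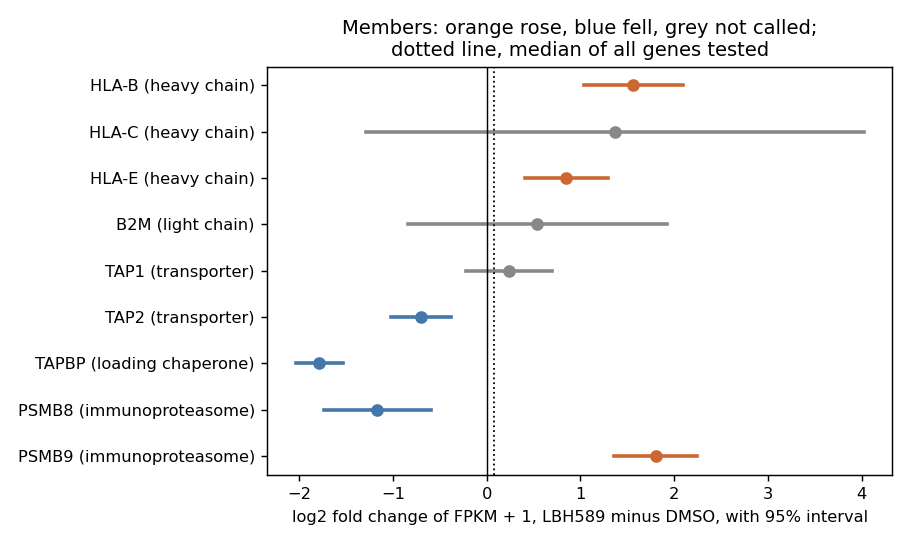
Log2 fold change of FPKM + 1, LBH589 minus DMSO, for the 9 genes in order of role (points), with 95% intervals from limma (lines). HLA-B, HLA-E and PSMB9 lie to the right of 0, TAP2, TAPBP and PSMB8 to the left, and the intervals of HLA-C, B2M and TAP1 include 0.

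HLA-B and HLA-E rose, and HLA-C varied too much between libraries to be called. HLA-B, a classical heavy chain that presents peptides to cytotoxic T cells, measured 25.1, 17.5 and 14.7 FPKM in DMSO replicates 1, 2 and 3, against 47.9, 62.5 and 61.7 FPKM in LBH589 replicates 1, 2 and 3. Every LBH589 library lay above every DMSO library, and the means were 19.1 ± 5.42 and 57.4 ± 8.24 FPKM (SD, n = 3 each), a 3.01-fold difference. The log2 fold change of HLA-B was 1.56 (SE 0.22, limma adjusted p = 0.00177). HLA-E, a heavy chain of little variation that presents signal peptides to receptors of natural killer cells, stood at 22.4, 15.5 and 14.2 FPKM with DMSO, against 29.2, 30.9 and 34.5 FPKM with LBH589. Its means of 17.4 ± 4.40 and 31.5 ± 2.73 FPKM differed 1.82-fold (log2 fold change 0.85, SE 0.18, limma adjusted p = 0.0102). In both genes DMSO replicate 1 was the highest of the controls and still lay below all treated libraries.

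HLA-C, a classical heavy chain that is also a ligand of natural killer cell receptors, was at 2.59 and 13.3 FPKM in DMSO replicates 1 and 2 and listed at 0 in DMSO replicate 3. In LBH589 it was at 4.18, 5.34 and 26.1 FPKM. The groups overlapped, and the log2 fold change of 1.37 had an interval from -1.29 to 4.03 (limma adjusted p = 0.344), so neither a large rise nor a fall can be told from no change. Leaving out single libraries moved it between 0.42 and 2.34. A value of exactly 0 in such files can be a failed estimate for a transcript, so HLA-C was given by library and not by its mean. The sum of HLA-B, HLA-C and HLA-E, which is less touched by how fragments are split between similar genes, was 50.1, 46.3 and 28.9 FPKM in DMSO and 81.2, 98.8 and 122 FPKM in LBH589. The groups did not overlap (means 41.8 ± 11.3 and 101 ± 20.6 FPKM, SD, n = 3 each). The exact permutation p, two-sided, was 0.1, the lowest that a comparison of 3 with 3 can reach. The difference between the group means was 59.0 FPKM.

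The sharing of identical stretches with HLA genes and other members was measured on the GENCODE release 29 transcripts. Stretches that differ at some bases, and genes outside these sets, were not compared, so fragments could be shared more widely. Of the stretches of 50 bases in the leading HLA-B transcript, 2.54% also occur in another HLA gene. The share was 6.79% for HLA-C and 4.66% for HLA-E, and 0 for B2M, TAPBP, PSMB8 and PSMB9. HLA genes differ between people at many bases, and how reads from the alleles of 92.1 cells were assigned to the reference transcripts was not tested. In this respect the levels of single HLA genes are less certain than those of the other members.

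B2M, the shared light chain without which classical class I molecules do not reach the surface, was not called. Its 3 controls measured 21.98, 3.96 and 15.5 FPKM, against 18.6, 19.7 and 13.2 FPKM with LBH589. DMSO replicate 2 stood apart at the low end, and the groups were mixed among the other libraries. The log2 fold change was 0.54, with an interval from -0.84 to 1.92 (limma adjusted p = 0.473), and it was -0.12 without DMSO replicate 2 (limma adjusted p = 0.722). GENCODE release 29 holds 4 protein-coding B2M transcripts, of which 3 were listed and ENST00000648006 was not analysed here, so the B2M level may be incomplete. Of all 31 such transcripts of the 9 genes 17 were listed, among them 2 of 6 for TAPBP and 1 of 3 for PSMB9. Only HLA-E had all of its transcripts listed, so the levels of the other members may be incomplete too. The log2 ratio of the heavy chain sum to B2M within a library was 1.15, 3.25 and 0.85 in DMSO and 2.07, 2.27 and 3.12 in LBH589. These ranges overlapped (two-sided exact permutation p = 0.5, adjusted p = 0.6 over the 6 ratios tested), and the high DMSO value was again that of replicate 2, without which the difference was 1.48 in place of 0.73.

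**Figure D2:**
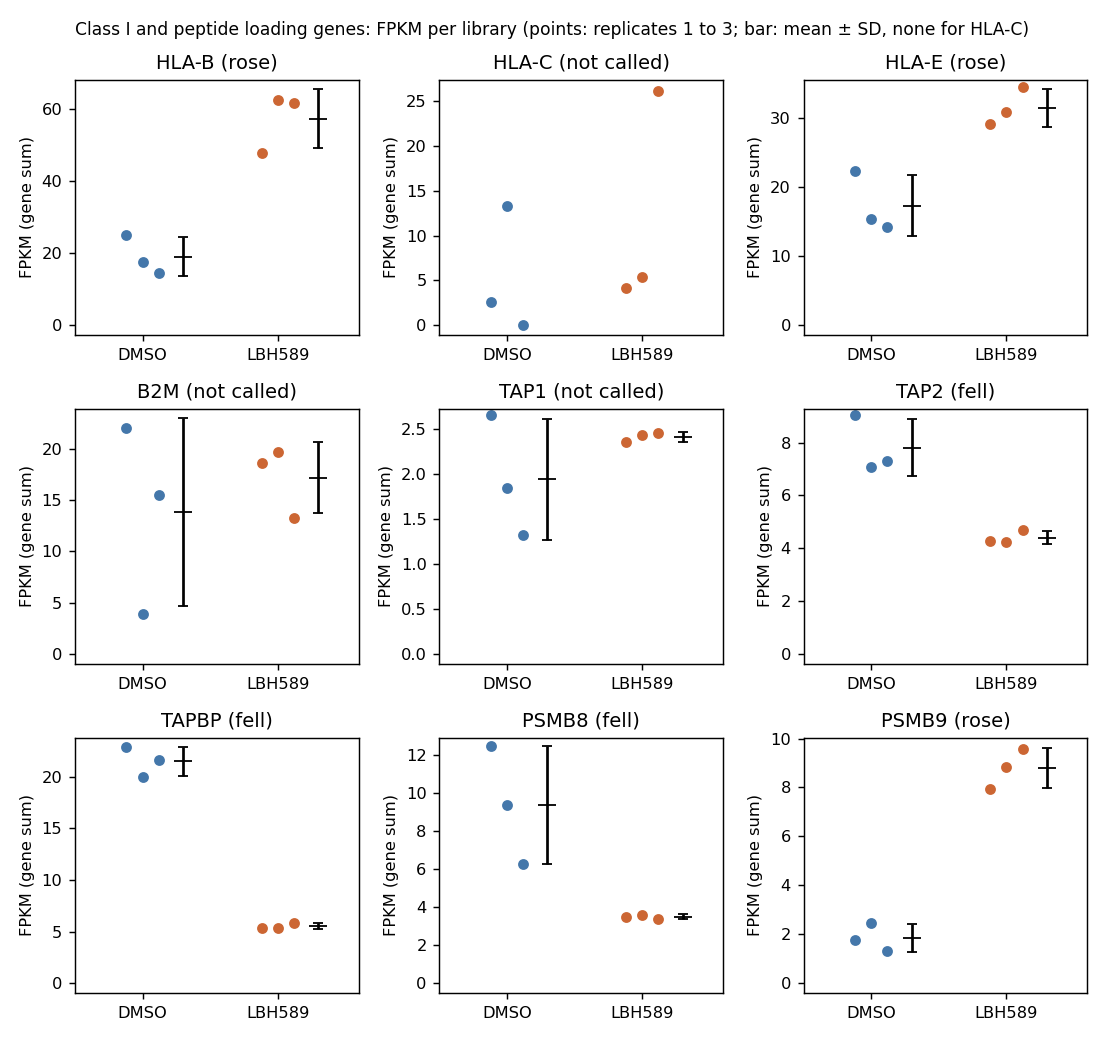
FPKM summed per gene in every library, with DMSO in blue and LBH589 in orange. Points are replicates 1 to 3 from left to right and bars the mean ± SD, left out for HLA-C, which is listed at 0 in a DMSO library. The treated points lie above all controls for HLA-B, HLA-E and PSMB9 and below all controls for TAP2, TAPBP and PSMB8.

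The upstream sequences of HLA-B, HLA-C and B2M are shown because these genes are known to share a regulatory module. Only HLA-B was called, but the intervals of HLA-C (-1.29 to 4.03) and B2M (-0.84 to 1.92) include its log2 fold change of 1.56. The sequences come from the RefSeq promoter table, build GRCh38.p14, 5′ to 3′ on the gene's strand, cut where a protein-coding exon of GENCODE release 29 begins. Capitals mark the letters TGACG, the core of a cyclic AMP response element, and CCAAT, the core of the box bound by NFY, each on either strand.
HLA-B, chr6:31357189-31357429, minus strand: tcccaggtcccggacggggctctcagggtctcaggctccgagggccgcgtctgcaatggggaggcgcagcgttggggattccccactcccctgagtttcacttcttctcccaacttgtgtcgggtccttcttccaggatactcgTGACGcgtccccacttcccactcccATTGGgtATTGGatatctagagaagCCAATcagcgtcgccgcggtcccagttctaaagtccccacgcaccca
HLA-C, chr6:31272093-31272342, minus strand: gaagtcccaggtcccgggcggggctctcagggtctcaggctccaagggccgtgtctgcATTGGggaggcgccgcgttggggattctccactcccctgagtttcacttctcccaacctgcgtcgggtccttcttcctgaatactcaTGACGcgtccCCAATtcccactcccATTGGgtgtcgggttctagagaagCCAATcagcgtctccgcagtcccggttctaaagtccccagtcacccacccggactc
B2M, chr15:44711267-44711486, plus strand: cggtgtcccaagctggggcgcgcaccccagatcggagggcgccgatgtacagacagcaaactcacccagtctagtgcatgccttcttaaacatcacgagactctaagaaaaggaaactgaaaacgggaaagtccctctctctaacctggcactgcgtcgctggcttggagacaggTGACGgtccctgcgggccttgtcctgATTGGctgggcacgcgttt
Over the 250 bases before the start, HLA-B and HLA-C were identical at 226 of 254 aligned columns (89.0%). The promoter windows of HLA-B, HLA-C and B2M all held both motifs, and so did that of PSMB9. Of the 10 promoter windows of the members, 6 held TGACG and 5 held CCAAT. The letters TGACG were found in 24.5% and CCAAT in 34.6% of all 34943 promoter windows. Such a match describes the letters and not a bound site.

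Tapasin and the TAP2 chain of the transporter fell, and TAP1 was not called. TAPBP had the lowest adjusted p of the 9 genes. It stood at 22.9, 20.03 and 21.6 FPKM with DMSO, against 5.33, 5.39 and 5.87 FPKM with LBH589, with little spread inside either group. The means of 21.5 ± 1.42 and 5.53 ± 0.295 FPKM (SD, n = 3 each) differ 3.89-fold, at a log2 fold change of -1.78 (SE 0.10, limma adjusted p = 6.92e-05). TAP2, the chain that forms the peptide transporter together with TAP1, stood at 9.04, 7.06 and 7.32 FPKM with DMSO, against 4.26, 4.25 and 4.70 FPKM with LBH589. It fell 1.77-fold (log2 fold change -0.70, SE 0.13, limma adjusted p = 0.005996), and no treated library reached the lowest control. TAP1, the other chain, stood at 2.66, 1.84 and 1.32 FPKM with DMSO, against 2.35, 2.43 and 2.45 FPKM with LBH589. The treated TAP1 values were nearly equal and lay inside the range of the controls (log2 fold change 0.24, interval -0.22 to 0.70, limma adjusted p = 0.340).

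The balance of the 2 transporter chains was compared as a log2 ratio of TAP1 to TAP2 within each library, which library scaling touches only through the pseudocount. The ratio was -1.46, -1.504 and -1.84 in DMSO and -0.65, -0.62 and -0.72 in LBH589. The groups did not overlap, and the ratio was 0.94 higher in LBH589 (two-sided exact permutation p = 0.1, the smallest possible, adjusted p = 0.15 over the 6 ratios). TAP1 was listed below TAP2 in all 6 libraries.

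The immunoproteasome subunits went in opposite directions. PSMB9, which replaces PSMB6, stood at 1.77, 2.46 and 1.30 FPKM with DMSO, against 7.93, 8.85 and 9.59 FPKM with LBH589. It rose from 1.84 ± 0.58 to 8.79 ± 0.83 FPKM (SD, n = 3 each), 4.77-fold, the largest ratio of means among the 9 genes (log2 fold change 1.80, SE 0.18, limma adjusted p = 5.15e-04). PSMB8, which replaces PSMB5, stood at 12.5, 9.39 and 6.27 FPKM with DMSO, against 3.51, 3.61 and 3.35 FPKM with LBH589. The 3 controls were spread widely and the 3 treated libraries were close together below them. PSMB8 fell 2.69-fold (log2 fold change -1.16, SE 0.23, limma adjusted p = 0.00763).

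Of the 3 constitutive counterparts 2 fell. PSMB6 fell from 16.5 ± 2.64 to 8.95 ± 0.66 FPKM (limma adjusted p = 0.00441), and PSMB7 fell from 148 ± 22.7 to 111 ± 6.06 FPKM (limma adjusted p = 0.0460). The PSMB7 call ended with equal library sums (adjusted p = 0.253), and also without DMSO replicate 2 (0.0710) or LBH589 replicate 1, 2 or 3 (0.111, 0.0870 and 0.132), after quantile normalization (0.0705), with plain limma moderation (0.0562) and with only the most abundant transcript counted (0.0559). PSMB5 was at 35.5 ± 13.8 and 15.8 ± 5.22 FPKM and narrowly missed the threshold (limma adjusted p = 0.0501). Leaving out DMSO replicate 3 brought PSMB5 below it (adjusted p = 0.0216), as did equal medians (0.0412), a filter of 5 FPKM (0.0449) and quantile normalization (0.0487). The log2 ratio of PSMB9 to PSMB6 was -2.86, -2.10 and -2.95 in DMSO and -0.06, -0.01 and -0.003 in LBH589. That ratio was 2.61 higher in LBH589 (two-sided exact permutation p = 0.1, adjusted p = 0.15). The listed FPKM of PSMB9 and PSMB6 was near parity in all treated libraries. The log2 ratio of PSMB8 to PSMB5 was -1.89, -1.82 and -1.63 in DMSO and -2.14, -2.10 and -1.31 in LBH589, and the groups overlapped (two-sided exact permutation p = 0.9). PSMB10 was at 1.496, 1.26 and 0.33 FPKM in DMSO and listed at 0 in all LBH589 libraries. It passed the filter of 0.5 FPKM only through the DMSO libraries and so had to differ. Its call (limma adjusted p = 0.0200) ended without LBH589 replicate 1, 2 or 3 (0.0540, 0.0565 and 0.0578), and PSMB10 was not tested without DMSO replicate 1 or 2 or with equal sums. The log2 ratio of PSMB10 to PSMB7 fell by 0.57 with a pseudocount of 1 (two-sided exact permutation p = 0.1) and by 2.88 with a pseudocount of 0.1, so its size rests on the pseudocount.

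**Figure D3:**
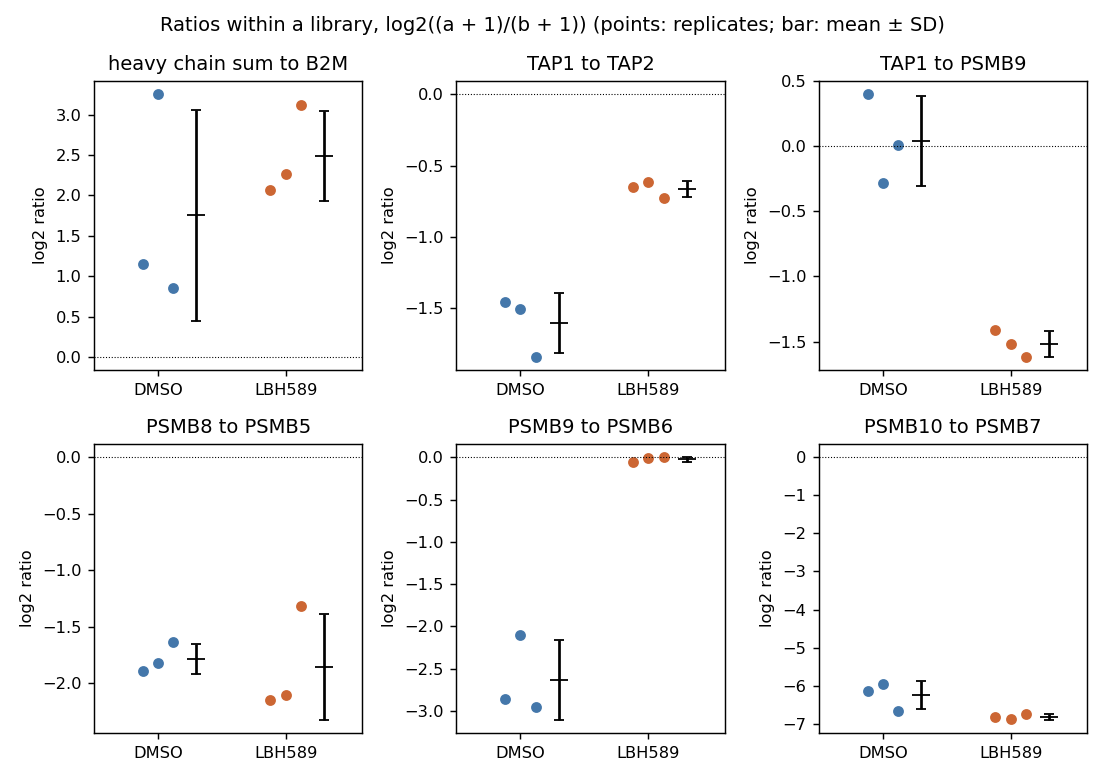
Log2 ratios of FPKM + 1 within each library for 6 pairs, DMSO in blue and LBH589 in orange. Points are replicates 1 to 3 and bars the mean ± SD. The groups are apart for TAP1 to TAP2, TAP1 to PSMB9, PSMB9 to PSMB6 and PSMB10 to PSMB7, and overlap for the heavy chain sum to B2M and PSMB8 to PSMB5.

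TAP2, PSMB8, TAP1 and PSMB9 are neighbours in the class II region of the MHC on chromosome 6. Their RefSeq starts span 15.5 kb in GRCh38, in that order, and within this stretch 2 genes fell, 1 was not called and 1 rose. TAP1 and PSMB9 are transcribed away from each other from a shared promoter region, and the starts of their listed transcripts lie 183 bases apart in GENCODE release 29. The log2 ratio of TAP1 to PSMB9 was 0.40, -0.28 and 0.01 in DMSO and -1.41, -1.52 and -1.62 in LBH589. All 3 treated values lay below all controls, and the mean ratio fell by 1.56 (two-sided exact permutation p = 0.1, adjusted p = 0.15).

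Interferon response elements (ISRE), bound by interferon regulatory factors, are known in several of these promoters. The core of the element, GAAA followed by any 2 bases and a further GAAA, was sought on both strands of the RefSeq windows, which run from 250 bases before to 50 bases after a start. Windows were found for 8 of the 9 genes, all but HLA-E, and numbered 10, since TAP1 and PSMB8 have more than 1 start. The core (GAAA, 2 bases, GAAA) occurred in 5 of the 10 windows, 1 each of B2M, TAP2, PSMB8, TAP1 and TAPBP, against 3.57% of all 34943 windows. Sites of 30 bases around the match are shown for these 5 genes on the gene's strand, build GRCh38.p14, with matching letters in capitals. Whether the core has a part in the calls of the genes was not tested.
TAP2, chr6:32838778-32838807, minus strand: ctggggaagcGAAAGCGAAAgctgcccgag
PSMB8, chr6:32844032-32844061, minus strand: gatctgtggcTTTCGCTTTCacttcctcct
TAPBP, chr6:33314076-33314105, minus strand: tttggagGAAAGTGAAAGTGAAAggaggaa
TAP1, chr6:32853816-32853845, minus strand: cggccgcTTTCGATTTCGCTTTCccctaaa
B2M, chr15:44711366-44711395, plus strand: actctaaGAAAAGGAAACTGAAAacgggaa
TAPBP, TAP1 and B2M each hold 2 overlapping matches. In PSMB8 the match begins 4 bases before the start of ENST00000374882.7_1 and runs across it. The listed transcripts of TAP1 and TAPBP start farther upstream than the RefSeq start used here, so their matches lie after those starts, and the TAP2 site spans a listed start. No match to these letters lay in the windows of HLA-B, HLA-C and PSMB9, which says only that these letters are not there. The PSMB9 window begins at chr6:32853942, and the TAP1 site lies just upstream of that edge. Its absence from the PSMB9 window therefore depends on where the window was cut. The 182 bases between the listed starts of TAP1 and PSMB9 are shown because this neighbouring pair had unlike changes, with TGACG in capitals on either strand.
PSMB9, chr6:32853979-32854160, plus strand: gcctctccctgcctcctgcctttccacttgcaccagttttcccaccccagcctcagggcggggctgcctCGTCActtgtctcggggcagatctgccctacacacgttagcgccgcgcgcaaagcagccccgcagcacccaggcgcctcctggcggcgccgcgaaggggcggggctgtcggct
The letters TTCNNNGAA, the core of the gamma-activated site, were in 1 window each of PSMB8 and TAP1, 2 of 10 against 7.66% of all windows. The TAP1 match is in another window than the ISRE core, and it too lies after the start of the listed transcript. GGGCGG, the GC box bound by SP1 family factors, was in 8 of 10 windows against 44.9% of all windows.

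Single transcripts carried the gene calls in part. Of the 17 listed transcripts of the 9 genes, 4 rose and 2 fell, against a background of 15.9% called among 27042 transcripts tested (8.62% rises and 7.33% falls). Both HLA-B transcripts rose, ENST00000412585.6_1 from 14.2 ± 3.92 to 44.8 ± 7.04 FPKM and the fragment ENST00000640615.1_1, only 240 bases long, from 4.85 ± 1.53 to 12.6 ± 1.31 FPKM (SD, n = 3 each; limma adjusted p = 0.00893 and 0.0210). HLA-E and PSMB9 have 1 listed transcript each, and both rose (limma adjusted p = 0.0391 and 0.00539). Transcript ENST00000434618.6_1 of TAPBP fell from 19.96 ± 1.73 to 5.11 ± 0.27 FPKM (limma adjusted p = 0.00135).

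PSMB8 has 2 listed transcripts with different first exons, whose starts lie 656 bases apart, and these are known to encode different starts of the protein. ENST00000374882.7_1 stood at 8.93, 6.90 and 4.82 FPKM with DMSO, against 1.80, 1.98 and 1.87 FPKM with LBH589, a fall (limma adjusted p = 0.0163). ENST00000374881.2_1 stood at 3.56, 2.48 and 1.46 FPKM with DMSO, against 1.71, 1.63 and 1.49 FPKM with LBH589, with groups that overlapped (limma adjusted p = 0.426). The first of them held 71.5, 73.5 and 76.8% of the FPKM of PSMB8 in DMSO and 51.2, 54.9 and 55.7% in LBH589. The mean share was 73.9 ± 2.65% in DMSO and 53.9 ± 2.38% in LBH589, with groups apart (two-sided exact permutation p = 0.1, adjusted p = 0.5 over the 5 genes tested).

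In TAP2 the sum was called and neither transcript was. ENST00000374897.2_1 stood at 6.14, 4.91 and 6.09 FPKM with DMSO, against 1.76, 4.22 and 1.59 FPKM with LBH589, and ENST00000620123.4_1 was at 2.89, 2.15 and 1.23 against 2.50, 0.03 and 3.12 FPKM. In LBH589 replicate 2 nearly all of TAP2 stood in the first transcript, where the other treated libraries had it mostly in the other, while the sums were alike. With only the most abundant transcript counted, TAP2 was not called (limma adjusted p = 0.0582). B2M showed a similar shift between libraries: ENST00000559916.1_1 was at 11.3 FPKM in DMSO replicate 1 and 16.6 FPKM in LBH589 replicate 2 and between 1.37 and 1.58 FPKM in the others. In HLA-C, ENST00000376228.9_1 was at 11.9 FPKM in DMSO replicate 2 and 25.6 FPKM in LBH589 replicate 3 and at most 2.06 FPKM elsewhere. Shares of the leading transcript of HLA-B, B2M, TAP2 and TAPBP overlapped between the groups.

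**Figure D4:**
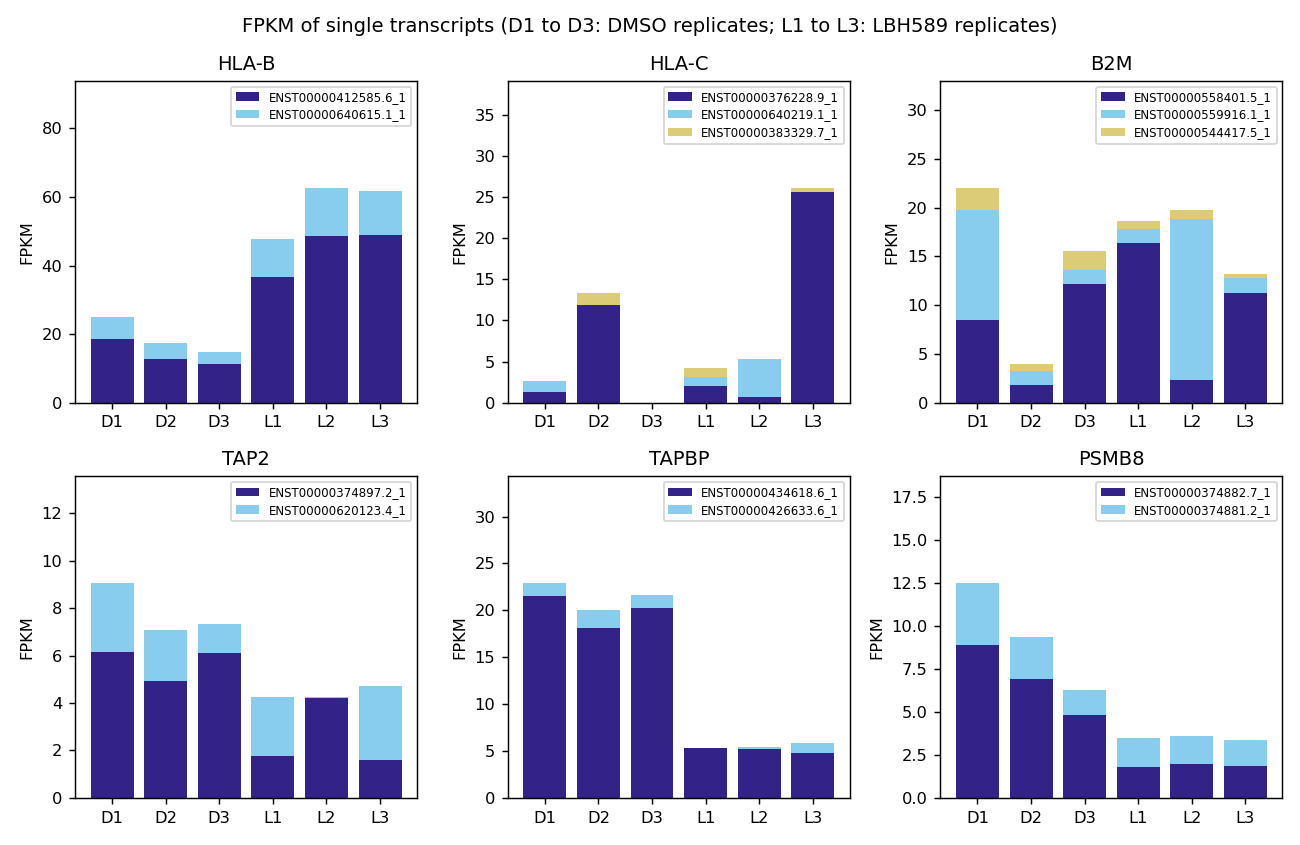
FPKM of the listed transcripts of 6 genes, stacked to the gene sum, in DMSO replicates (D1 to D3) and LBH589 replicates (L1 to L3). HLA-B and TAPBP keep their leading transcript in every library, PSMB8 loses mostly ENST00000374882.7_1, and the split within HLA-C, B2M and TAP2 changes from library to library.

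The order of the members by mean level per length changed with treatment. HLA-C is left out of this order, since its values ran from 0 to 13.3 FPKM in DMSO and from 4.18 to 26.1 FPKM in LBH589. In DMSO TAPBP, HLA-B, HLA-E and B2M led at means between 13.8 and 21.5 FPKM, with ranges that overlapped. PSMB8 and TAP2 followed, again with overlapping ranges, and TAP1 and PSMB9 were lowest at 1.94 ± 0.67 and 1.84 ± 0.58 FPKM, also overlapping. In LBH589 the order was HLA-B, HLA-E, B2M, PSMB9, TAPBP, TAP2, PSMB8 and TAP1, and the ranges of these 8 genes were apart from each other. The treated HLA-C values spanned the ranges of B2M, PSMB9, TAPBP and TAP2. Of the 12010 genes, 81.0% lay below TAPBP by mean FPKM in DMSO and 47.0% in LBH589. For PSMB9 these shares were 24.1 and 59.1%.

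Other genes of the pathway were described by lists of 79 genes in 9 groups, 69 of them listed and 65 tested. In these lists 20 genes rose, 16 fell and 29 were not called, at a median log2 fold change of 0.12 against 0.08 over all genes. Among all genes tested 48.8% were called, 27.2% as rises and 21.6% as falls, which is the background for each list below. Making library sums equal moved the median of all genes to 0.23 and gave 28 rises and 11 falls in the lists, so the balance of directions depends on the scaling. Among other class I and class I-like molecules, HLA-F, a nonclassical heavy chain, rose from 2.43 ± 0.70 to 6.85 ± 0.46 FPKM (SD, n = 3 each; limma adjusted p = 0.00201). With only the most abundant transcript counted HLA-F was not called (adjusted p = 0.361). The class I-like MR1, which presents vitamin metabolites, was at 1.08 ± 0.43 and 1.31 ± 0.44 FPKM, and the IgG receptor chain FCGRT was at 3.99 ± 1.01 and 5.04 ± 2.11 FPKM. Neither of these was called.

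Chaperones and trimming enzymes of the endoplasmic reticulum changed in both directions. Of 9 tested, 4 fell and 2 rose, at a median log2 fold change of -0.27. PDIA3, the disulfide isomerase that is linked to tapasin in the loading complex, fell from 212 ± 11.2 to 115 ± 14.5 FPKM (limma adjusted p = 0.00168). The aminopeptidases ERAP1 and ERAP2, which trim peptides to the length that class I binds, fell from 2.75 ± 0.36 to 1.21 ± 0.24 FPKM and from 1.41 ± 0.42 to 0.24 ± 0.01 FPKM (limma adjusted p = 0.00643 and 0.00328). Neither aminopeptidase was called with only the most abundant transcript counted (adjusted p = 0.144 and 0.203). ERAP2 passed the filter of 0.5 FPKM only through the DMSO libraries and so had to differ. The other fall was that of the lectin chaperone CANX (269 ± 60.8 and 143 ± 4.23 FPKM), and LNPEP, an endosomal aminopeptidase, was the other rise (4.06 ± 0.66 and 6.70 ± 0.05 FPKM), both named after their values were seen. HSPA5, the general chaperone BiP, rose from 158 ± 9.16 to 262 ± 4.49 FPKM (limma adjusted p = 0.00114). Of the 4 other interferon-inducible proteasome genes PSMB10 alone was called, and the proteasome activator chains PSME1 (45.8 ± 8.17 and 47.9 ± 2.71 FPKM) and PSME2 (13.7 ± 7.10 and 10.8 ± 3.32 FPKM) and the assembly factor POMP (66.8 ± 1.78 and 72.6 ± 3.61 FPKM) were not. With equal sums POMP passed as a rise (adjusted p = 0.0340). Of 6 cytosolic peptidases, 0 were called by limma, and 1 had an unadjusted p below 0.05. That was THOP1, an oligopeptidase, at 3.98 ± 1.56 and 1.78 ± 0.47 FPKM (limma adjusted p = 0.0609). It passed without DMSO replicate 3 (0.00763) and after quantile normalization (0.0232).

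Regulators of class I transcription were split, with 5 rises and 7 falls among 14 tested (median log2 fold change -0.49). The RFX and NFY complexes, which bind the shared promoter module of class I and class II genes, had subunits that moved both ways. RFXAP and NFYA rose, RFXAP from 4.36 ± 0.44 to 11.3 ± 0.34 FPKM and NFYA from 31.9 ± 2.50 to 51.1 ± 1.40 FPKM (limma adjusted p = 3.78e-04 and 0.00176). Named after their values were seen, RFX5 and NFYB of these complexes also rose (limma adjusted p = 0.0432 and 0.0123). RFXANK fell from 5.78 ± 1.68 to 2.59 ± 0.40 FPKM and NFYC from 6.73 ± 0.71 to 3.43 ± 0.52 FPKM (limma adjusted p = 0.0155 and 0.00479), likewise named after their values were seen. IRF1, an interferon-induced activator of class I genes, rose from 0.48 ± 0.23 to 1.47 ± 0.08 FPKM (limma adjusted p = 0.00684). IRF1 passed the filter of 0.5 FPKM only through the LBH589 libraries and so had to differ. NFKB1, an NF-kappaB subunit that binds class I enhancers, fell from 8.12 ± 0.44 to 2.27 ± 0.14 FPKM (limma adjusted p = 1.79e-04). USF2, a basic helix-loop-helix factor, fell from 47.2 ± 14.4 to 10.5 ± 1.03 FPKM (limma adjusted p = 7.76e-04; 0.136 with the most abundant transcript). NLRC5, the class I transactivator, was not analysed here.

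Of 10 tested genes of interferon signalling 6 rose and 1 fell (median log2 fold change 0.61). Among all genes tested 27.2% rose and 21.6% fell. JAK1, a kinase of interferon receptors, rose from 9.005 ± 1.01 to 28.0 ± 0.67 FPKM (limma adjusted p = 1.29e-04). The chains of the interferon-gamma receptor went opposite ways: IFNGR1 rose from 12.1 ± 0.79 to 24.1 ± 1.55 FPKM and IFNGR2 fell from 12.3 ± 2.38 to 3.25 ± 0.27 FPKM (limma adjusted p = 6.32e-04 and 4.74e-04). Among class II genes 5 were tested and 2 were called as rises, HLA-DMB and HLA-DRB1. HLA-DMB, a chain of the class II peptide exchanger, rose from 5.61 ± 2.44 to 17.9 ± 2.53 FPKM (limma adjusted p = 0.00400). HLA-DRB1, a class II beta chain, had listed values of 0, 0.12 and 0 FPKM with DMSO, against 1.197, 1.09 and 0.74 FPKM with LBH589. It passed the filter of 0.5 FPKM only through the LBH589 libraries and so had to differ, and it was not tested when any LBH589 replicate was left out. The chains HLA-DPA1 (1.09 ± 0.50 and 1.55 ± 1.10 FPKM) and HLA-DPB1 (1.85 ± 0.45 and 1.78 ± 0.30 FPKM) were not called.

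Of 10 genes of class I export and turnover, 3 rose and 1 fell (median log2 fold change 0.43). SEC24D, a coat protein of vesicles that leave the endoplasmic reticulum, rose from 4.92 ± 0.53 to 13.7 ± 1.00 FPKM (limma adjusted p = 3.41e-04). SUSD6, a membrane protein that promotes class I degradation, rose from 1.49 ± 0.12 to 2.94 ± 0.35 FPKM, and MARCH9, a ubiquitin ligase that can remove class I from the surface, rose from 6.002 ± 1.03 to 9.07 ± 0.58 FPKM (limma adjusted p = 0.00699 and 0.0245). The cargo receptor TMED10 fell from 64.0 ± 2.05 to 53.3 ± 2.64 FPKM (limma adjusted p = 0.0445). MARCH9 was no longer called when LBH589 replicate 1, 2 or 3 was left out (0.0848, 0.0608 and 0.0636). TMED10 was no longer called with any library left out (0.0538 to 0.134) or with equal sums (0.483). The TMED10 call also ended after quantile normalization (limma adjusted p = 0.156), with plain limma moderation (0.0743) and with the replicate number as a block (0.117).

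**Figure D5:**
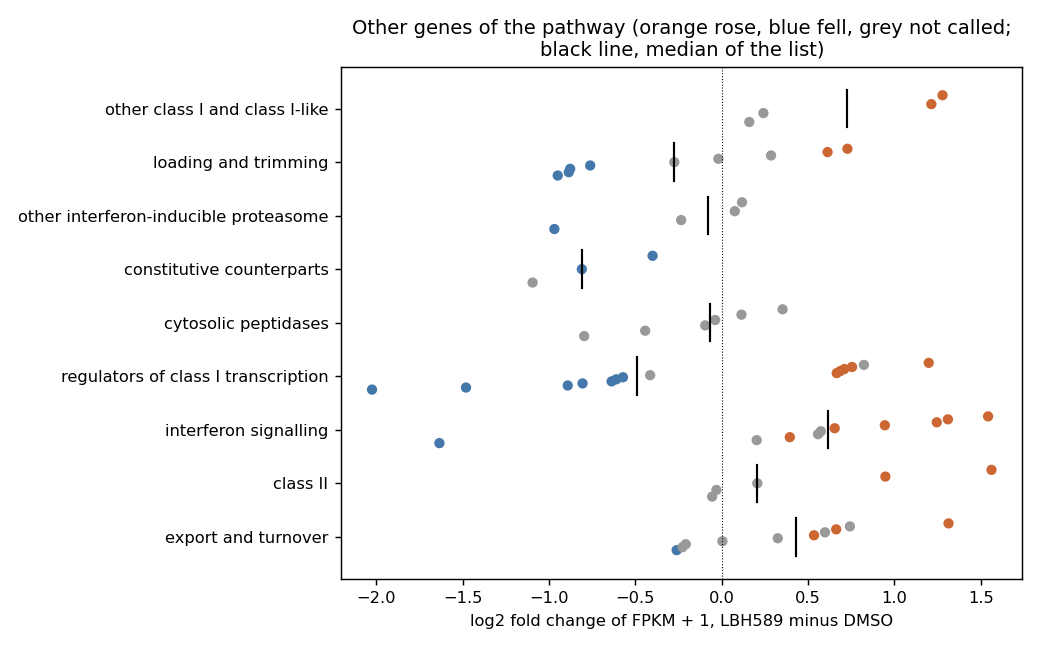
Log2 fold change of FPKM + 1, LBH589 minus DMSO, of the tested genes in the 9 pathway lists, with 1 point per gene and a black line at the median of the list. Interferon signalling holds 6 rises and 1 fall, loading and trimming 2 rises and 4 falls, and the regulators points on both sides.

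Genes whose log2(FPKM + 1) followed a member most closely over the 6 libraries were sought among the 6858 other genes averaging 5 FPKM or more. For HLA-B these were CCNG2, TBL1X and FXR2, with Pearson correlations of 0.999, 0.997 and 0.997. For TAP1 they were DUSP23, SAMD1 and ZNHIT1 (0.993, 0.991 and 0.990), and for B2M UTP6, RNASEH1 and DNAJC14 (0.995, 0.988 and 0.962). The 6 points share a treatment split and their library scaling, so these values describe likeness of pattern only. The genes nearest to TAP1 and B2M share with them a control group more spread than the treated one: DUSP23 lay between 4.43 and 11.4 FPKM in DMSO and between 8.68 and 10.1 FPKM in LBH589.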

How the data were processed

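The authors deposited 1 file per library with 1 FPKM value per transcript, per the file headers, for 6 libraries. Total RNA was extracted with Trizol and made into libraries with a TruSeq kit, per the labels' protocols. Per the submitters' processing notes, the tool Bowtie 0.12.2 and the build hg19 are named, with no role given. What tool quantified the transcripts, with which annotation and filter, is not given in the sources used here. All 30624 transcripts average 0.5 FPKM or more in at least 1 group, so transcripts below that in both groups were not analysed here.

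Identifiers were matched to GENCODE release 29 (30504 transcripts, 99.6%), and FPKM was summed per symbol to 12010 genes. Sums add values divided by different transcript lengths. Coordinates are GRCh38, not the files' hg19, and were used only for RefSeq promoter sequences and distances between starts. For testing, genes and transcripts had to average 0.5 FPKM across all 6 libraries. Their log2(FPKM + 1) values went into limma 3.58.1 (statmod 1.5.0, R 4.3.3), with trended and robust variance moderation, treatment as the only term and Benjamini-Hochberg adjustment over all 11520 genes or 27042 transcripts. For ratios, sums and shares, two-sided permutation tests over the libraries were exact. Multiples of a single read could not be traced in all libraries, so absolute depth is unknown.

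The limma step was tested on simulated data with known changes. The members and lists were chosen with earlier results of these data known. Named genes are all members, in each pathway list up to 4 tested genes with the smallest adjusted p, the proteasome counterparts, NLRC5 and IRF1 whatever their values, and for likeness the 3 best correlated genes of B2M, HLA-B and TAP1. Some genes that this rule names are not reported here. The alternatives tried were a pseudocount of 0.1, dropping the filter or raising it to 5 FPKM, 3 scalings (equal sums, equal medians, quantiles), plain limma moderation, a threshold of 0.01, a replicate block, only the most abundant transcript counted, and leaving out each library.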

Additional observations from a re-analysis of the deposited data

How the results depend on the processing

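The 3 rises and 3 falls among the 9 genes kept their counts under every alternative run, except that TAP2 was not called with the most abundant transcript (2 falls) and HLA-E not at adjusted p below 0.01 (2 rises). Rises and falls of single transcripts, 4 and 2, moved more: 2 and 1 at adjusted p below 0.01, 1 fall at a mean of at least 5 FPKM, and 2 to 4 rises and 1 to 2 falls when a library was left out. The pathway lists had 36 calls, 23 at adjusted p below 0.01, 24 with the most abundant transcript (15 rises and 9 falls), and 26 to 37 with a library left out. The difference in the log2 ratio of PSMB8 to PSMB5, -0.07, ran from -0.34 to 0.075 with a library left out. The difference in the share of the leading transcript, in percentage points, ran from -6.30 to 31.9 for B2M and from -2.99 to 5.53 for TAPBP, and so changed sign, against 2.40 to 4.16 for HLA-B, -36.1 to -3.32 for TAP2 and -21.2 to -18.6 for PSMB8. HLA-C was not tested for shares, since it is listed at 0 in a DMSO library.

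The labels do not say what a replicate number shares. Deviations of same-numbered libraries from their group means correlated at -0.10, 0.02 and -0.03 across genes, so no pairing was seen. With 3 libraries per group this does not show that same-numbered libraries share nothing. With the replicate number as a block, the members kept 3 rises and 3 falls, no member transcript rose, 1 fell, and the lists had 32 calls, with PSMB5 called lower (adjusted p = 0.00716) and PSMB7 not called (0.0668). The absence of counts limits what can be said of genes near 0 FPKM, such as PSMB10, HLA-DRB1, IRF1 and ERAP2.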
